A study of Mus musculus with 13 samples.

Results

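Glutamate and GABA-A receptor subunit genes were compared between the cortex of APPPS1;Apoe-/- mice and that of APPPS1 mice. The set was a named list of 37 genes: 4 AMPA, 5 kainate, 7 NMDA and 7 metabotropic glutamate receptor genes and 14 GABA-A receptor genes. All 37 were among the 20971 genes of the deposited RPKM table (reads scaled by gene length and by the mapped reads of the library), and 29 reached a mean of 0.5 RPKM over all libraries and were tested. The rule used gene names and the mean level over both groups, not the difference between them. The list itself, however, was chosen with earlier results of these data known.

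RNA of whole cortex was sequenced from 7 APPPS1;Apoe-/- mice and 6 APPPS1 mice, 1 library each, all labelled as C57BL/6 and 6 months old. Both groups by label carry the APPPS1-21 transgenes, mutant human amyloid precursor protein and presenilin genes driven by the neuronal Thy1 promoter. Plaques form in the cortex of this model, but were not measured in the data used here. The first group, also called Apoe-null mice, lacks Apoe in addition, the gene of the main lipid carrier of the brain. The comparison asked which receptor genes differ with the loss of Apoe in the cortex of this amyloid model.

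Fast excitation in the cortex runs through tetrameric AMPA, kainate and NMDA receptors, ion channels opened by glutamate, and metabotropic glutamate receptors act more slowly through G proteins. GABA-A receptors are pentameric chloride channels that carry fast inhibition, and their alpha subunits set where on a neuron and with what kinetics they act. Subunits come from separate genes whose levels differ between cell types and brain regions, and cortex holds many of them. In bulk RNA, fewer cells of a type and less RNA per cell cannot be told apart.

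The targeted gene Apoe measured 4.01 to 6.35 RPKM in APPPS1;Apoe-/- mice and 463 to 670 RPKM in APPPS1 mice, so the libraries carried the Apoe level of their label. Alignments per library ran from 18455493 to 34538031 in the Apoe-null group and from 28402328 to 77005806 in the APPPS1 group. App and Thy1, to which transgene reads can align, stood at 106 and 116 RPKM and at 52.2 and 56.9 RPKM in Apoe-null replicates 2 and 5, against at least 176 RPKM for App and 172 RPKM for Thy1 in the other 11 libraries. Why these 2 libraries were low, and whether they differ in transgene expression, was not tested. Called members are therefore also given without them. Markers of excitatory cortical neurons were all measured (10 of 10 tested, summed level 432 to 560 RPKM in Apoe-null and 487 to 672 RPKM in APPPS1), and 1 of them, Slc17a7, was called lower. Of 7 microglial markers 4 were called lower (median change -0.47), of 7 oligodendrocyte markers 3 were called higher (0.29), and of 8 astrocyte markers 2 were called lower and 1 higher (0.09). The microglial markers were lowest by mean log2 value in Apoe-null replicates 2 and 5, at 3.78 and 3.87. In the other Apoe-null libraries they stood at 4.37 to 4.56, and in APPPS1 at 4.60 to 4.88. The part of these marker shifts in the receptor results was not tested. Striatal markers were present too: 12 of 12 were tested and 1, Pde10a, was called higher (median change of the 12 markers 0.46). Their summed level was 442 to 937 RPKM in Apoe-null and 339 to 832 RPKM in APPPS1. By mean log2 value they were highest in APPPS1 replicate 3, at 4.04, and in Apoe-null replicates 1, 2 and 5. All 7 Apoe-null libraries stood at 3.22 or more, and the APPPS1 libraries other than replicate 3 at 2.92 to 3.19. Except in APPPS1 replicate 3, the striatal marker level thus went with genotype, which limits what fits with it as a covariate can separate.

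Of the 29 tested receptor genes 4 passed the test. The GABA-A alpha subunit gene Gabra2, the NMDA subunit gene Grin3a and the kainate subunit gene Grik5 were lower in APPPS1;Apoe-/- cortex, and the GABA-A rho subunit gene Gabrr2 was higher. A change is the mean log2(RPKM + 0.5) of Apoe-null libraries less that of APPPS1 libraries. It comes from limma fitted to all 13343 genes that averaged 0.5 RPKM or more, and a gene was called at a Benjamini-Hochberg adjusted p under 0.05 over all of them. Of the 29 tested members 3 were called lower, where 4.74% of all tested genes were called lower, and 1 was called higher, where 3.48% were. In either direction that is 13.8% of the members, against 8.23% of all tested genes. The median change was 0.005 over the 29 members and -0.008 over all tested genes. Gabrr2 was below 0.5 RPKM in all 6 APPPS1 libraries and was tested only because it was high in the other group; without it 3 of 28 members were called.

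**Figure D1:**
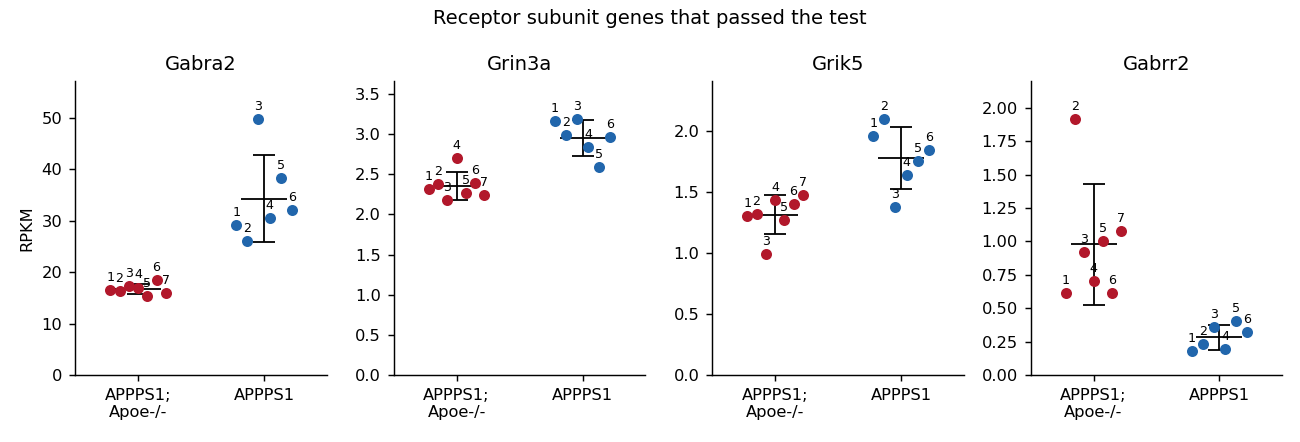
RPKM of the 4 called receptor genes in each library (points, numbered by replicate; vertical axes start at 0), with the group mean and SD (bar and whiskers; n = 7 APPPS1;Apoe-/-, n = 6 APPPS1). The groups do not overlap for Gabra2 (15.4 to 18.4 against 26.1 to 49.6 RPKM) or Gabrr2 (0.615 to 1.91 against 0.181 to 0.408 RPKM), and they do for Grin3a and Grik5.

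Gabra2 encodes an alpha subunit found in receptors at synapses on pyramidal cells and striatal neurons, among them those on the axon initial segment. It stood at 16.5, 16.4, 17.3, 17.05, 15.4, 18.4 and 16.0 RPKM in APPPS1;Apoe-/- replicates 1 to 7, and at 29.2, 26.1, 49.6, 30.5, 38.2 and 32.0 RPKM in APPPS1 replicates 1 to 6. The highest Apoe-null value was under the lowest APPPS1 value, so the groups did not overlap. Groups that do not overlap were seen for 2 of the 29 members (6.9%) and for 3.72% of all tested genes. The other member was Gabrr2, tested only because it was high in Apoe-null mice. Without Gabrr2, Gabra2 alone of 28 members remained. The group means were 16.7 ± 0.988 RPKM in Apoe-null and 34.3 ± 8.52 RPKM in APPPS1 (SD, n = 7 and n = 6), a ratio of 0.488. The log2 change was -0.98 ± 0.11 (SE; limma adjusted p = 8.31e-05). The spread was unequal: the coefficient of variation was 5.91% among the Apoe-null libraries and 24.8% among the APPPS1 libraries, where replicates 3 and 5 were highest.

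Each of 31 alternative settings kept the call of Gabra2, with changes from -1.10 to -0.77 and adjusted p from 1.45e-05 to 0.0381. APPPS1 replicate 3, with the highest Gabra2, also had the highest striatal marker level and the most alignments (77005806). Without it the change was -0.87 (adjusted p = 1.45e-05). The change shrank to -0.78 (limma adjusted p = 0.00493) with the number of alignments as a covariate. It was smallest, at -0.77 (limma adjusted p = 0.00777), when Apoe-null replicates 2 and 5 were also left out. With the striatal marker level as a covariate the change was -1.10 (adjusted p = 2.49e-04), and without Apoe-null replicates 2 and 5 it was -0.96 (adjusted p = 4.49e-04).

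Gabra2 spans positions 70957597 to 71095849 of chromosome 5, minus strand (mm10, GENCODE mouse release 21), inside a cluster of 4 GABA-A subunit genes that spans 1.4 Mb, in the order Gabrg1, Gabra2, Gabra4, Gabrb1. The other 3 genes of the cluster, which encode a gamma, an alpha and a beta subunit, were not called, and their groups overlapped. Gabrg1 averaged 6.91 ± 0.541 RPKM in APPPS1;Apoe-/- and 6.84 ± 0.508 RPKM in APPPS1 (log2 change 0.01, 95% interval -0.12 to 0.14; adjusted p = 0.919). Gabra4 averaged 29.1 ± 3.33 RPKM in Apoe-null and 26.4 ± 3.21 RPKM in APPPS1 (0.14, interval -0.04 to 0.32; adjusted p = 0.337). Gabrb1 averaged 21.8 ± 2.27 RPKM in Apoe-null and 22.3 ± 1.56 RPKM in APPPS1 (-0.04, interval -0.18 to 0.10; adjusted p = 0.770). The intervals of these 3 genes do not reach the change of Gabra2, whose own interval was -1.22 to -0.75. Of 13 tested genes within 2 Mb of Gabra2, 1 was called (Tec), where 8.23% of all tested genes were. The median change of these 13 genes was 0.01. The 2 Mb window was chosen after the values were seen, and was used for Gabrr2, Grin3a, Grik5 and the GABA-B receptor gene Gabbr2 too.

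**Figure D2:**
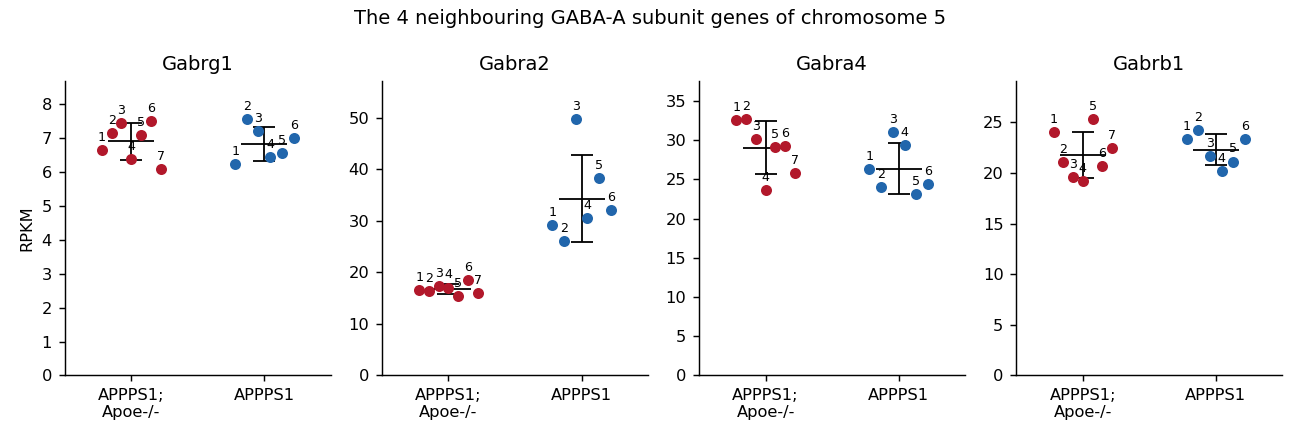
RPKM in each library (points, numbered by replicate; vertical axes start at 0) of the 4 GABA-A subunit genes that neighbour each other on chromosome 5, with the group mean and SD (n = 7 APPPS1;Apoe-/-, n = 6 APPPS1). Gabra2 separates the groups, while Gabrg1, Gabra4 and Gabrb1 overlap between them.

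Within C57BL mice, Gabra2 is known as a gene with a substrain difference: C57BL/6J mice carry an intronic deletion that lowers its brain mRNA, and the same substrain carries a deletion in Nnt, the mitochondrial transhydrogenase gene. The labels give C57BL/6 for both groups and no substrain. Nnt, looked up after the values of Gabra2 were seen, stood at 3.03 to 3.66 RPKM in the 7 APPPS1;Apoe-/- libraries (median 3.19) and at 4.15 to 5.65 RPKM in the 6 APPPS1 libraries (median 4.74), with a log2 change of -0.50 ± 0.07 (SE; limma adjusted p = 3.62e-04). Nnt and Gabra2 thus both had groups that did not overlap. Substrain was not tested as a source of the difference in Gabra2, and a difference in background that goes with the groups cannot be told apart from the loss of Apoe.

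The share of Gabra2 among alpha subunit transcripts was lower in every APPPS1;Apoe-/- library than in any APPPS1 library. It made up 20.8% to 25.4% of the summed RPKM of the 5 alpha members Gabra2 to Gabra6 in APPPS1;Apoe-/- libraries (median 22.5%) and 34.8% to 46.7% in APPPS1 libraries (median 36.6%). Without Gabra2 that sum was 50.1 to 62.6 RPKM in Apoe-null and 47.65 to 57.1 RPKM in APPPS1, and the groups overlapped. Gabra3, the alpha subunit of many monoaminergic and deep-layer neurons, averaged 16.4 ± 1.42 RPKM in Apoe-null and 16.0 ± 1.42 RPKM in APPPS1. Gabra5, whose receptors sit largely outside synapses, averaged 11.3 ± 0.809 RPKM in Apoe-null and 10.2 ± 1.58 RPKM in APPPS1. Neither passed the test (log2 change 0.03 and 0.14, adjusted p = 0.795 and 0.297). The ratio of Gabra5 to Gabra4 was 0.355 to 0.464 in Apoe-null and 0.284 to 0.481 in APPPS1.

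Gabrr2, a rho subunit gene best known from the retina, was the only member called higher. It had 0.615, 1.91, 0.921, 0.707, 1.001, 0.617 and 1.08 RPKM in APPPS1;Apoe-/- replicates 1 to 7 and 0.181, 0.232, 0.361, 0.198, 0.408 and 0.322 RPKM in APPPS1 replicates 1 to 6. All 7 Apoe-null libraries lay above all 6 APPPS1 libraries, and Apoe-null replicate 2 was highest. The ratio of the group means was 3.45, and the log2 change was 0.88 ± 0.15 (SE; limma adjusted p = 0.00325), which understates the ratio of so weak a gene. With no minimum level the gene was called as well (adjusted p = 0.0118). The change ran from 0.60 with a pseudocount of 1 to 1.44 with one of 0.1, and without Apoe-null replicates 2 and 5 the change was 0.71 (adjusted p = 0.00291). With alignments and striatal markers both as covariates the call ended (0.65, adjusted p = 0.287). Gabrr2 lies on the plus strand of chromosome 4 at positions 33062999 to 33095865. Its relative Gabrr1, which starts 36.7 kb beyond its end, was at 0 to 0.0509 RPKM in Apoe-null and 0.0307 to 0.139 RPKM in APPPS1 and was not tested. None of the 21 tested genes within 2 Mb of Gabrr2 was called by limma, where 8.23% of all tested genes were.

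Grin3a encodes an NMDA receptor subunit that binds glycine rather than glutamate and lowers calcium entry. It ranged from 2.17 to 2.71 RPKM with a median of 2.31 in the APPPS1;Apoe-/- libraries and from 2.58 to 3.18 RPKM with a median of 2.97 in the APPPS1 libraries. The groups overlapped only through Apoe-null replicate 4, at 2.71 RPKM, and APPPS1 replicate 5, at 2.58 RPKM. The log2 change was -0.27 ± 0.06 (SE; limma adjusted p = 0.0105), with means of 2.35 ± 0.173 RPKM in Apoe-null and 2.95 ± 0.221 RPKM in APPPS1 (SD, n = 7 and n = 6). The call was kept without Apoe-null replicates 2 and 5 (-0.27, adjusted p = 0.0346) and ended with the number of alignments or the striatal markers as a covariate (-0.21 and -0.28, adjusted p = 0.168 and 0.0541). Grin3a spans positions 49661611 to 49845744 of chromosome 4, minus strand, and Ppp3r2, on the same strand, lies within its span. Of 11 tested genes within 2 Mb of Grin3a, 0 were called lower and 2 higher (Mrpl50 and Zfp189), where 4.74% and 3.48% of all tested genes were.

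Grik5 encodes a high-affinity kainate subunit that forms channels only together with the subunits of Grik1, Grik2 and Grik3. It ranged from 0.993 to 1.47 RPKM with a median of 1.32 in the APPPS1;Apoe-/- libraries and from 1.38 to 2.09 RPKM with a median of 1.80 in the APPPS1 libraries. The lowest APPPS1 library was replicate 3, which had the most striatal markers, and the groups overlapped through it. The log2 change was -0.33 ± 0.08 (SE; limma adjusted p = 0.0256). The call was the weakest of the 4. It ended without Apoe-null replicates 2 and 5 (-0.32, adjusted p = 0.0712), without APPPS1 replicate 1, 2 or 6 alone (-0.30, -0.29 and -0.32, adjusted p = 0.0598, 0.0639 and 0.0580), and with the striatal markers as a covariate (-0.25, adjusted p = 0.189). Grik5 spans positions 25009849 to 25072346 of chromosome 7, minus strand, 5.31 Mb from Apoe. Of 44 tested genes within 2 Mb of it, 3 were called lower and 3 higher, where 4.74% and 3.48% of all tested genes were.

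The regions around the transcription starts of 3 of the called genes are shown, since they are the sequences next to the genes that differ; RefSeq gives them on GRCm38.p6, from 250 bases before to 50 bases after the start, on the strand of the gene. Gabra2 is at chr5:71095800-71096099, minus strand. Gabrr2 is at chr4:33062862-33063161, plus strand. Grik5 is at chr7:25072320-25072619, minus strand. Capitals mark matches, on either strand, to the GC box GGGCGG and the CCAAT box CCAAT; the TATA box TATAAA, the cAMP response element TGACGTCA and the E-box CACGTG were searched too and had no match in these windows, and no matches overlap.
Gabra2: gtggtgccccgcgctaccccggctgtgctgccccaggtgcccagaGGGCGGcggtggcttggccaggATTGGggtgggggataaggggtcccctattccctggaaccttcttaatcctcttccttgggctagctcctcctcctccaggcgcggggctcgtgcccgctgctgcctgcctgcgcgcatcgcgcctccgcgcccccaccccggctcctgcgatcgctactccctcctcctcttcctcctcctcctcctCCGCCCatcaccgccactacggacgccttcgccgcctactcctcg
Gabrr2: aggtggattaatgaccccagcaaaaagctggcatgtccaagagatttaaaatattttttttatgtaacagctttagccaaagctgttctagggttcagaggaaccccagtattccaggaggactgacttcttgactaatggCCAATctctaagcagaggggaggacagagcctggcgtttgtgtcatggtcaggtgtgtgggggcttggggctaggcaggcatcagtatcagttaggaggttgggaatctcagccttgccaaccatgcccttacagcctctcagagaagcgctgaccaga
Grik5: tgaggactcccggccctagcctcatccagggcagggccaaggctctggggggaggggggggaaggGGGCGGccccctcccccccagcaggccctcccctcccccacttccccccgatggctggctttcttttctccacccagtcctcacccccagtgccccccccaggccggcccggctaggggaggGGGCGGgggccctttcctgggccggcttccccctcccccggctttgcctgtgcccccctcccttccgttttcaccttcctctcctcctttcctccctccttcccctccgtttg
The Gabra2 window holds 25 CG dinucleotides, 2 GC boxes and 1 CCAAT box, that of Grik5 10 CG dinucleotides and 2 GC boxes, and that of Gabrr2 2 CG dinucleotides and 1 CCAAT box. The RefSeq start matches that of GENCODE for Gabra2 but not for Gabrr2 or Grik5. Over all 32851 listed promoters the median is 7 CG dinucleotides, and 35.7% hold a GC box, 37.4% a CCAAT box, 13.6% a TATA box, 1.79% a cAMP response element and 7.15% an E-box.

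As a class, AMPA receptor genes had the highest summed level of the glutamate receptor genes. None of the 4 was called by limma, where 8.23% of all tested genes were, and 4 genes are too few to read this as a class result. Gria2, whose edited subunit keeps AMPA receptors closed to calcium, was the most abundant member of all. It ranged from 85.3 to 99.9 RPKM with a median of 88.4 in the APPPS1;Apoe-/- libraries and from 81.8 to 92.2 RPKM with a median of 85.5 in the APPPS1 libraries, and the groups overlapped (log2 change 0.10 ± 0.05, SE; limma adjusted p = 0.283). Gria1, the subunit added to synapses during potentiation, averaged 55.9 ± 4.29 RPKM in Apoe-null and 55.6 ± 4.62 RPKM in APPPS1. Gria3 averaged 29.1 ± 2.71 RPKM in Apoe-null and 29.2 ± 2.12 RPKM in APPPS1. Gria4, prominent in interneurons, averaged 4.79 ± 0.404 RPKM in Apoe-null and 5.02 ± 0.423 RPKM in APPPS1. The order Gria2, Gria1, Gria3, Gria4 held in each of the 13 libraries, with no overlap between neighbours. The ratio of Gria1 to Gria2 was 0.561 to 0.646 in Apoe-null and 0.593 to 0.717 in APPPS1.

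Kainate receptor genes were far weaker. Grik2, a subunit that forms channels by itself, led them at 4.72 to 5.81 RPKM (median 5.36) in APPPS1;Apoe-/- and 4.24 to 6.64 RPKM (median 5.29) in APPPS1; its change was 0.04 ± 0.08 (SE; limma adjusted p = 0.828) and turned negative with the striatal markers as a covariate (-0.05). Grik1, Grik3 and Grik4 averaged 3.22, 2.64 and 0.929 RPKM in Apoe-null and 3.20, 2.80 and 1.05 RPKM in APPPS1. Grik4, the other high-affinity subunit gene, had a log2 difference of -0.11 (95% interval -0.30 to 0.08, limma adjusted p = 0.465). Grik5 was thus the only called gene of 5, where 8.23% of all tested genes were called. The ratio of Grik5 to Grik2 was 0.171 to 0.281 in Apoe-null and 0.208 to 0.461 in APPPS1.

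NMDA receptors need the subunit of Grin1, which averaged 8.94 ± 0.992 RPKM in APPPS1;Apoe-/- and 9.66 ± 0.881 RPKM in APPPS1 (log2 change -0.11; limma adjusted p = 0.401). Grin2b, a glutamate-binding subunit that dominates early in development, was the most abundant NMDA gene. It ranged from 22.3 to 26.4 RPKM (median 23.5) in Apoe-null and from 20.7 to 23.7 RPKM (median 22.5) in APPPS1, with a change of 0.10 ± 0.05 (SE; adjusted p = 0.237). Grin2a, which rises as circuits mature, averaged 2.16 ± 0.379 RPKM in Apoe-null and 2.27 ± 0.266 RPKM in APPPS1. The ratio of Grin2a to Grin2b was 0.0731 to 0.104 (median 0.0847) in Apoe-null and 0.0933 to 0.1105 (median 0.101) in APPPS1, and the groups overlapped. The ratio of Grin3a to Grin1 also overlapped, at 0.233 to 0.322 in Apoe-null and 0.244 to 0.355 in APPPS1. Grin2c, Grin2d and Grin3b were too weak to be tested.

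None of the 6 tested metabotropic receptor genes was called by limma, with adjusted p between 0.370 and 0.989. Of all tested genes 8.23% were called, so few or no calls would be looked for among 6 genes. Grm3, a presynaptic and astrocytic receptor gene, led them. It ranged from 27.9 to 33.8 RPKM (median 32.0) in APPPS1;Apoe-/- and from 27.3 to 32.6 RPKM (median 29.96) in APPPS1 (log2 change 0.08 ± 0.05, SE; adjusted p = 0.370). Grm2, its presynaptic relative, ranged from 3.06 to 5.09 RPKM (median 4.29) in Apoe-null and from 3.76 to 5.47 RPKM (median 4.41) in APPPS1 (-0.09 ± 0.10, SE; adjusted p = 0.601). Grm5, the postsynaptic receptor gene that signals through calcium release, averaged 10.6 ± 0.619 RPKM in Apoe-null and 10.1 ± 0.513 RPKM in APPPS1. The presynaptic receptor genes Grm7, Grm8 and Grm4 averaged 5.47, 3.75 and 2.41 RPKM in Apoe-null and 5.63, 3.54 and 2.40 RPKM in APPPS1. Grm6, a gene of retinal bipolar cells, was listed at 0 in all 7 Apoe-null libraries and in 5 of the 6 APPPS1 libraries.

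Among the remaining GABA-A genes, the beta subunit gene Gabrb2 was the most abundant. It ranged from 52.9 to 64.4 RPKM (median 58.3) in APPPS1;Apoe-/- and from 53.4 to 61.9 RPKM (median 55.3) in APPPS1, and its change of 0.05 ± 0.06 (SE; limma adjusted p = 0.642) turned negative with the striatal markers and alignments as covariates (-0.04). Gabrd, the delta subunit gene of extrasynaptic receptors that carry tonic inhibition, averaged 35.8 ± 4.70 RPKM in Apoe-null and 31.0 ± 5.83 RPKM in APPPS1; its change of 0.22 had the widest upper limit of all uncalled members (95% interval -0.02 to 0.46; adjusted p = 0.249). Gabrg3, a minor gamma subunit gene, averaged 1.19 ± 0.185 RPKM in Apoe-null and 1.30 ± 0.325 RPKM in APPPS1.

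**Figure D3:**
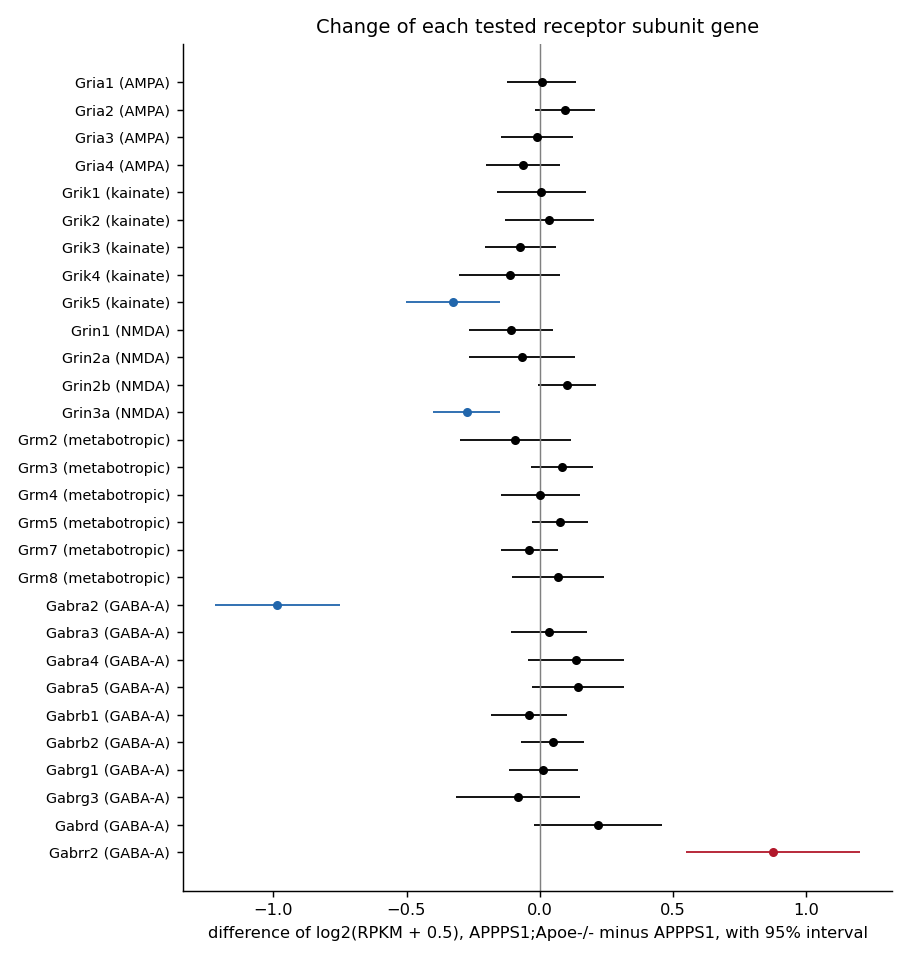
Difference of log2(RPKM + 0.5) between APPPS1;Apoe-/- (n = 7) and APPPS1 (n = 6) libraries for each of the 29 tested members (points) with the 95% interval from limma (lines), by receptor class; blue marks genes called lower, red the gene called higher and black the 25 uncalled genes. Gabra2 at -0.98 and Gabrr2 at 0.88 lie away from the others, and the uncalled genes lie between -0.11 and 0.22.

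The 25 uncalled members had log2 differences between -0.11 and 0.22, and for none of them was the unadjusted limma p under 0.05. Their 95% intervals reached from -0.32 to 0.46, and for 19 of the 25 they stayed within 0.3 on the log2 scale to either side. The median coefficient of variation of the 29 members was 9.05% in APPPS1;Apoe-/- libraries and 8.95% in APPPS1 libraries. By class, the median change was -0.001 for AMPA, -0.07 for kainate, -0.09 for NMDA, 0.04 for metabotropic and 0.04 for GABA-A members tested. The summed RPKM of a class overlapped between the groups in all 5 classes; for AMPA members it was 167 to 200 RPKM in Apoe-null and 166 to 189 RPKM in APPPS1, and for GABA-A members 178.5 to 212 RPKM in Apoe-null and 194 to 234 RPKM in APPPS1.

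**Figure D4:**
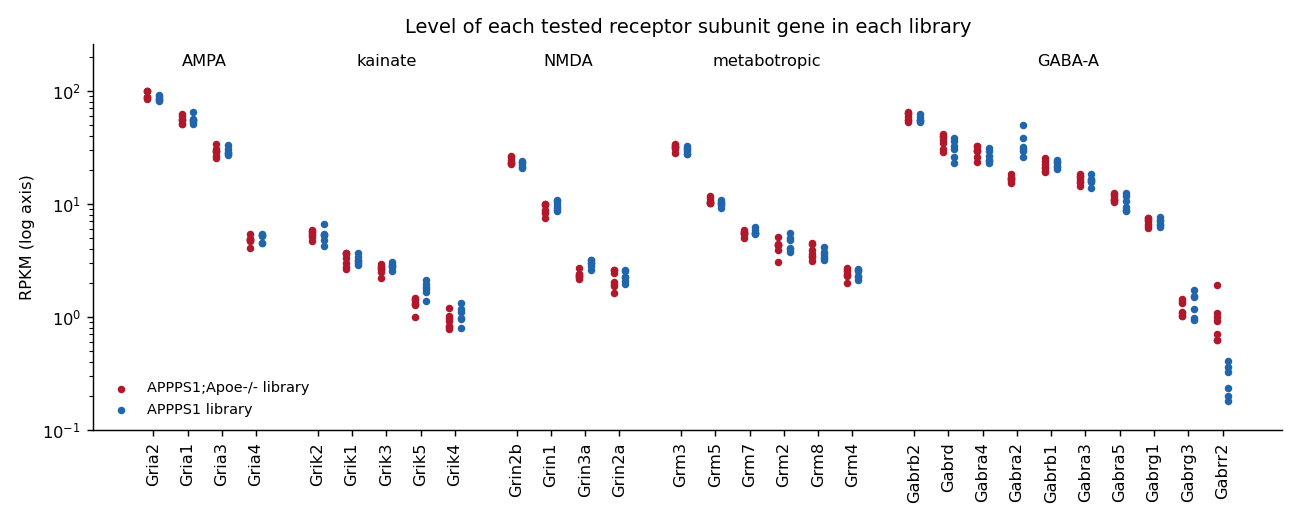
RPKM (log axis) of each of the 29 tested members in each library, with the 7 APPPS1;Apoe-/- libraries left (red) and the 6 APPPS1 libraries right (blue) for each gene, sorted by mean level within each receptor class. Levels run from 99.9 RPKM for Gria2 to 0.181 RPKM for Gabrr2, and Gabra2 and Gabrr2 are the genes whose groups do not overlap.

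The 8 members below the filter were weak in both groups. Grin2c, just outside it, had a mean of 0.352 RPKM over all libraries, and Gabrr2, just inside, one of 0.658 RPKM. Grin2d lay between 0.101 and 0.217 RPKM in APPPS1;Apoe-/- and between 0.106 and 0.294 RPKM in APPPS1. Gabra6, the alpha subunit gene of cerebellar granule cells, reached at most 0.0984 RPKM in Apoe-null and 0.161 RPKM in APPPS1. Grin3b, Gabre, Gabrr1, Gabrr3 and Grm6 averaged under 0.05 RPKM over all libraries.

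Genes that work with these receptors were checked in a list of 46 auxiliary, scaffold and related receptor genes, of which 44 were tested. By limma 1 of them (2.27%) was called lower and 0 were called higher, where 4.74% and 3.48% of all tested genes were. The median change of the 44 genes was -0.03. At an unadjusted p under 0.05 the counts were 3 lower and 1 higher. None of the 11 AMPA auxiliary genes, 14 tested glutamate scaffold genes or 10 GABA-A scaffold genes was called. The called gene was Gabbr2, which encodes the subunit of the GABA-B receptor that couples to G proteins. It ranged from 1.79 to 2.45 RPKM (median 2.20) in APPPS1;Apoe-/- and from 2.71 to 3.30 RPKM (median 2.95) in APPPS1, without overlap, and its log2 change was -0.38 ± 0.07 (SE; adjusted p = 0.00366). Groups without overlap were seen for 3.72% of all tested genes. Gabbr2 lies on chromosome 4 at positions 46662305 to 46991873, 2.67 Mb from Grin3a. Of 31 tested genes within 2 Mb of Gabbr2, 0 were called lower and 0 higher. In the stretch of chromosome 4 from Gabrr2 to Grin3a, both included, 10 of 118 tested genes were called (8.47%). Among all tested genes that matched GENCODE by name it was 8.25%.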

How the data were processed

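RNA of cortex was extracted with Trizol and prepared with the Clontech SMARTer kit, per the labels' protocols. The authors deposited RPKM per gene in 1 table for the 13 libraries, with the number of alignments of each. Partek and the mm10 build are named in the submitters' processing notes; the aligner, strand use and annotation behind the values were not given in the sources used here. Read numbers per gene are not stated by RPKM, so weak genes such as Gabrr2 carry an unknown sampling error. From the table, log2(RPKM + 0.5) was fitted with limma 3.58.1 in R 4.3.3 (lmFit, eBayes with trend), genotype being the only term, over the 13343 genes averaging 0.5 RPKM or more. Tests were two-sided and p-values were adjusted over all of these genes by the Benjamini-Hochberg method. The members and lists were chosen with earlier results of these data known. Values are given in full for called members and, per class, for the most abundant member and the one of largest change; Gabbr2 is the called gene of the other receptor list, and Nnt was added after seeing the data. Of the 37 members 37 matched GENCODE mouse release 21 by name, and 28 had a RefSeq promoter, which Grin3a did not. On simulated data for this comparison with 200 changed genes among 13343, 86% of genes given a log2 change of 0.5 and 99% of genes given one of 1 were called. So were 8 unchanged genes. Noise was drawn separately for each gene, with equal spread in both groups. Shifts shared by many genes of a library were thus left out, and the rates may be too high for the real libraries. Changes as small as those of Grin3a and Grik5 were not simulated. Replicates are separate mice per the series' design. Python 3.11.15 did tables and figures.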

Additional observations from a re-analysis of the deposited data

Results flagged for a closer look

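In 58 groups (29 tested members in each genotype) a library was set against the others of its group, by its gap to the nearest in proportion to the range. Chance sets apart about 1 in 20 groups, or 2.9 here, and 3 were set apart. Gabrr2 in APPPS1;Apoe-/- replicate 2 was 1.91 RPKM, against 0.615 to 1.08 RPKM in the other libraries of the group. Grin3a in APPPS1;Apoe-/- replicate 4 was 2.71 RPKM, against 2.17 to 2.39 RPKM. Grik5 in APPPS1;Apoe-/- replicate 3 was 0.993 RPKM, against 1.27 to 1.47 RPKM.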

How the results depend on the processing

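Over 31 other settings, 13 of which left out 1 library each, Gabra2 was always called lower. Of the 3 members called lower, 1 (Gabra2) was still called with the alignments covariate, with the striatum marker covariate, with both covariates, without both low-App libraries and with the alignments covariate, without the 3 libraries of lowest alignment number, and without both low-App libraries with the striatum marker covariate, the last chosen after seeing the data. The 1 member called higher became 0 with a mean of at least 1 RPKM, which left Gabrr2 out, and with both covariates. Over all genes, with 1098 calls as reported, these fits called 202 with the alignments covariate, 336 with the striatum marker covariate, 52 with both covariates and 500 without the 3 libraries of lowest alignment number. Without both low-App libraries there were 677 calls, 281 with the alignments covariate added and 386 with the striatum marker covariate added. Leaving out 1 library gave 711 to 1594 calls, the highest without APPPS1;Apoe-/- replicate 4. The cause was not tested. The change of Grik2 turned to -0.05 with striatum markers and -0.03 when both low-App libraries were also left out, and it ran from -0.02 to 0.10 with 1 library left out. That of Gabrb2 turned to -0.0017 and -0.0016 in the same 2 fits and to -0.04 with both covariates. Grik5 was called in 10 of the 13 fits that left out 1 library, Grin3a, Gabrr2 and Gabbr2 in 13. With both covariates the calls of Gabbr2 (-0.32, adjusted p = 0.247) and Nnt (-0.57, adjusted p = 0.0599) ended. Under 3 other scalings the median of all genes was at most 0.017, and the members called stayed at 3 lower and 1 higher. No paired analysis was possible because the labels give no replicate numbers shared between the groups.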
